A study of Mus musculus with 6 samples.

Results

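The genes described here encode the machinery that licenses replication origins and copies DNA at the fork. They were the 49 genes whose symbols in the exon count table equalled a list of 24 origin licensing genes, 21 polymerase and clamp genes and 4 genes of dNTP supply, out of 39017 genes in the table. Expression was measured by RNA-seq in iGBs, which are cultured B cells that acquire a germinal center phenotype. Splenic B cells from C57BL6/J mice were grown for 3.5 d on 40LB feeders, a fibroblast line that makes CD40L and BAFF, with IL-4 given as 5 ng/ml by the sample labels and as a lower concentration by the methods of the study, and the feeders were then depleted. The 3 Control mice were Cγ1-cre and the 3 Prmt1-null mice were Prmt1 F/F Cγ1-cre, with 2 females and 1 male of each genotype and 1 library per mouse. Both groups therefore carried the Cre, which is driven from the Cγ1 locus and is active only after B cells are activated, so Prmt1 was deleted during the culture and not in the resting cell.

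Replication is prepared in G1, when the origin recognition complex (ORC) together with Cdc6 and Cdt1 loads the MCM helicase onto origins as an inactive ring. Geminin and the ubiquitin ligase adaptor Dtl restrain Cdt1 after S phase has begun, so that each origin is licensed once per cycle. The kinase Cdc7 with its activator Dbf4, followed by Cdc45 and the GINS complex, turns the loaded ring into a moving helicase. Polymerase alpha-primase then starts each strand, polymerases epsilon and delta extend the leading and the lagging strand on the PCNA clamp that RFC loads, and Fen1 and Lig1 join the Okazaki fragments. Ribonucleotide reductase, Tyms and Tk1 supply the nucleotides. Germinal center B cells are among the fastest dividing mammalian cells, and E2F factors drive many of these genes at the entry to S phase.

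Each library had between 45343250 and 62774232 counts, and the threshold for a call was an adjusted p under 0.05 with a mean normalized count over 100. Prmt1 itself, the arginine methyltransferase that was deleted, fell to 36.9% of Control. The normalized counts were 3964, 3924 and 4838 in the Control mice and 1745, 1478 and 1477 in the Prmt1-null mice, which is a log2 fold change of −1.44 (SE 0.095, adjusted p = 1.11e-05, by the quasi-likelihood test of edgeR, adjusted over all genes by the Benjamini-Hochberg method). The cells carried their labelled identity, since 8 B cell markers summed to between 377738 and 398277 normalized counts in Control and between 396015 and 415945 in Prmt1-null libraries. Markers of the feeder fibroblasts summed to between 944.2 and 1171 in Control and between 1167 and 1486 in Prmt1-null libraries, with Postn at 0 in all 6. Of 9 tested feeder genes, 8 had a fold change above 0, 2 of them at an unadjusted p under 0.05 (all genes tested 6.50%), and 0 were called by edgeR. Plasma cell markers summed to between 56388 and 59717 in Control and between 63950 and 69589 in Prmt1-null libraries, where 6 of 6 tested genes had a fold change above 0, 3 of them at an unadjusted p under 0.05 and 2 without overlap (all genes tested 9.95%). Of these, 1 gene, Derl3, rose past the threshold (all genes tested 0.580%). The part of either cell type in the results below was not tested. In these bulk libraries fewer cells in S phase and less RNA per cell cannot be told apart.

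The replication genes differed little between the genotypes, and most were on the lower side in Prmt1-null iGBs. All 49 had enough counts to be tested, with Control means between 295.1 for Gins1 and 14538 for Rrm1. Of these, 38 (77.6%) had a fold change below 0 in Prmt1-null iGBs and 11 above 0, against 9154 of 18268 genes (50.1%) over the whole table. The log2 fold changes lay between −0.35 and 0.18, with a median of −0.08 beside −0.00082 for all genes tested. Only 2 members passed the threshold, Rfc2 and Rrm2, both lower. They were 4.08% of the members, and 0.602% of all genes tested were called lower. The 18268 genes tested included some with means too low for a call, whereas every member had a Control mean of at least 295.1. Backgrounds over all genes tested, here and elsewhere, were not matched to the members for expression level. The part of expression level in the differences from these backgrounds was not tested. Members called higher numbered 0, against a background of 0.580%. Without Control replicate 3 the members called lower numbered 5, and without any one of the other 5 libraries they were 0, in fits with fewer samples. Over the whole table the genes called lower numbered 170 of 18967 without Control replicate 3 and between 10 and 56 in the other 5 fits. At an unadjusted p under 0.05, 15 members were lower (30.6%, background 7.00%) and 1 was higher (2.04%, background 6.50%). The 3 Prmt1-null libraries lay wholly below the 3 Control libraries for 16 members (32.7%, background 9.92%) and wholly above for 2 (4.08%, background 9.95%). DESeq2, the test that the study used, was run without the low-count filter. With it 6 members were called lower (12.2%, background 2.93%) and 1 higher (2.04%, background 2.40%), where the background is taken over the 13247 genes to which DESeq2 gave an adjusted p.

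**Figure D1:**
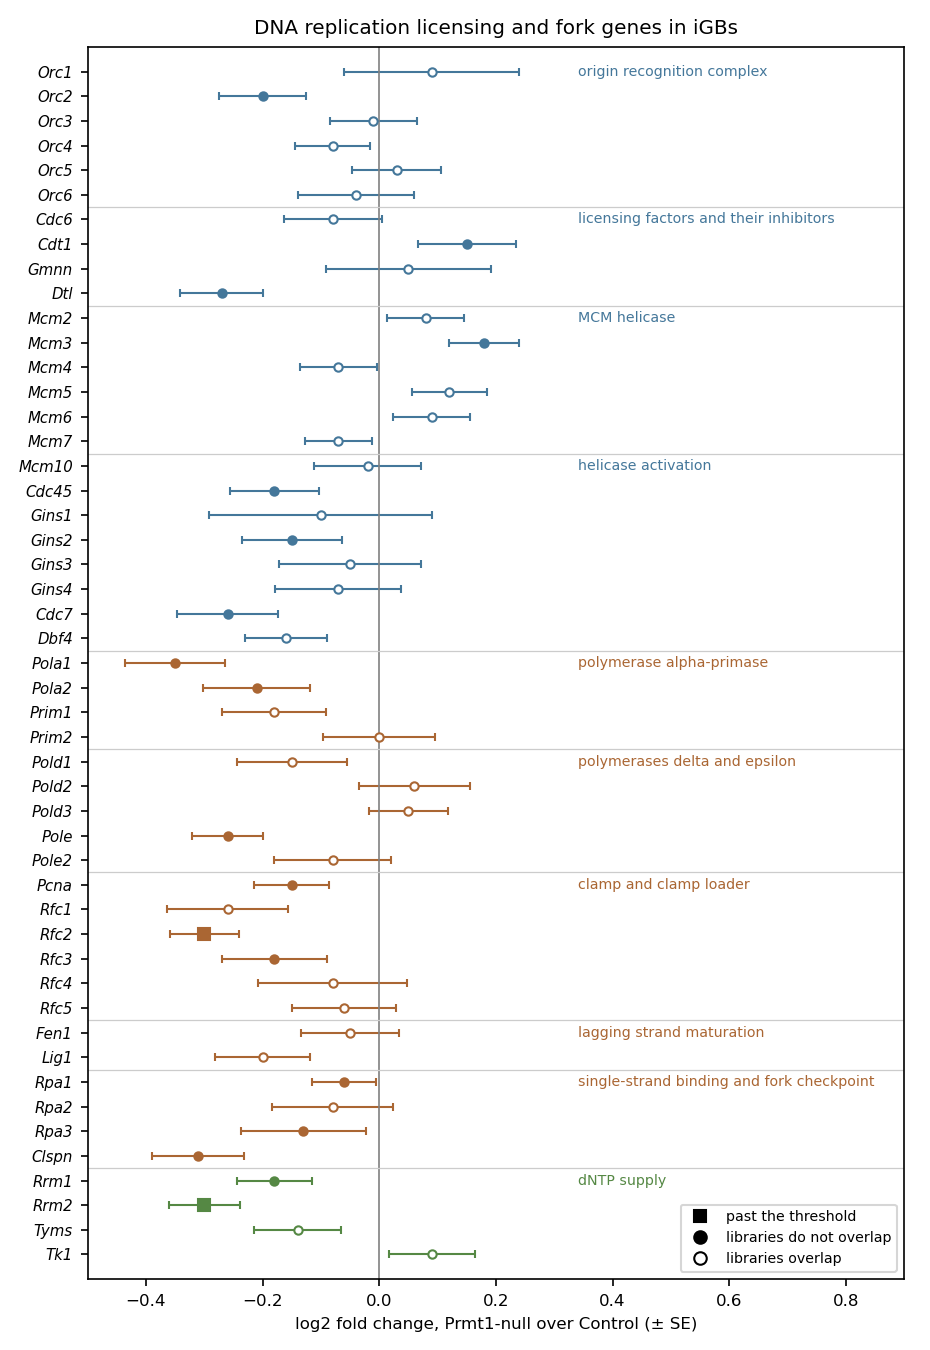
Log2 fold change (x axis, Prmt1-null over Control, ± SE, n = 3 and 3 libraries) of the 49 genes in order of role (y axis). Colors mark origin licensing (blue), polymerase and clamp (brown) and dNTP supply (green), squares mark Rfc2 and Rrm2, which passed the threshold, and filled circles mark genes whose libraries did not overlap. The genes of helicase activation, of polymerase alpha-primase and of the clamp and its loader all lie at or below 0, and 4 of the 6 MCM genes lie above 0.

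Because many members lay on the same side of 0, their promoters were read from RefSeq (GRCm38.p6) in windows from 250 bases before to 50 bases after the start site, which were found for 41 of the 49 genes. An E2F word, that is TTTGGCGC, TTTGCCGC, TTTCGCGC or TTTCCCGC on either strand, was present in 17 of 50 windows (34.0%), against 744 of all 32851 windows in the table (2.26%). The words can overlap each other and share end letters with the other motifs, which were counted separately. By group, 10 of 24 windows of origin licensing genes (41.7%), 7 of 22 windows of polymerase and clamp genes (31.8%) and 0 of 4 windows of dNTP supply genes held such a word. The CCAAT box, searched as CCAAT on either strand, was in 27 of the 50 windows (54.0%, all windows 37.4%). The cell cycle homology region, searched as TTTGAA or TTCGAA on either strand, was in 10 (all windows 19.2%), and the E-box CACGTG was in 7 (14.0%, all windows 7.15%). The 17 genes with an E2F word had a median log2 fold change of −0.07 and the 24 without one −0.11. Stretches of 5 promoters, from 250 bases before to 30 bases after the start, are given 5′ to 3′ on the strand of the gene, for Rrm2, which was called, and for 4 of the 6 members without overlap whose windows hold an E2F word, namely those that DESeq2 called. Cdt1 and Rfc3 are the others and are not shown. The choice is thus not typical, since 24 of the 41 genes had no such word, Orc2 and Cdc7 among them, and no window was used for Rfc2 and Pole. E2F words are in capitals, except in Rrm2, where no E2F word was found and the capitals mark the CCAAT box.
Rrm2 (chr12:24708004-24708283, plus strand): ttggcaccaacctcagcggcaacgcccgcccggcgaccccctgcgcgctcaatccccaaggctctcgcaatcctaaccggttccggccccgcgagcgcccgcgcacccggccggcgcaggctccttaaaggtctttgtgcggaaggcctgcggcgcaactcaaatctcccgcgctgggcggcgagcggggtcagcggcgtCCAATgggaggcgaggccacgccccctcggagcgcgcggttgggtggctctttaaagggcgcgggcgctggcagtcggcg
Dtl (chr1:191575515-191575794, minus strand): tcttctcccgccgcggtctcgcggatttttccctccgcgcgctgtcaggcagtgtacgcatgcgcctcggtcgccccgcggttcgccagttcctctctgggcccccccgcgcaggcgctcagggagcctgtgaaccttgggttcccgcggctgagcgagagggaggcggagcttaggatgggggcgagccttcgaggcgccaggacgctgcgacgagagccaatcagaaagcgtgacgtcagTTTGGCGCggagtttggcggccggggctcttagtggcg
Pola1 (chrX:93632126-93632405, minus strand): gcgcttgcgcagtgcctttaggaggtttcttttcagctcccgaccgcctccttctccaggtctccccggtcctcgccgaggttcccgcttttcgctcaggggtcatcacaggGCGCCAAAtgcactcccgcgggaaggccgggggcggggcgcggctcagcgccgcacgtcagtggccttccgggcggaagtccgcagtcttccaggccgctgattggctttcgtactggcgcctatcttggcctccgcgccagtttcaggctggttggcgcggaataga
Clspn (chr4:126556730-126557009, plus strand): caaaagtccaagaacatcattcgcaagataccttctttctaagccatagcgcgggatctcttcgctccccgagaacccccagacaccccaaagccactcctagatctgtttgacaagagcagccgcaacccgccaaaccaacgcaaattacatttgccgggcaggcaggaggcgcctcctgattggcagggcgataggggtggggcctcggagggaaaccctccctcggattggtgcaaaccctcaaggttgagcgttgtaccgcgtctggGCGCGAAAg
Mcm3 (chr1:20820283-20820562, minus strand): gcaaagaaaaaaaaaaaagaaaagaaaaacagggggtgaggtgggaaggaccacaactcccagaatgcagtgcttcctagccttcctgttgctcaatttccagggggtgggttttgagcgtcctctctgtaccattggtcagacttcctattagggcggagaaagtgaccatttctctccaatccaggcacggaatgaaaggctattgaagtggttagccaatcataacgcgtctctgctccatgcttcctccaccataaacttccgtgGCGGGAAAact
Dtl, Pola1 and Clspn were lower in Prmt1-null iGBs without overlap of the libraries, and Mcm3 was higher. These genes were chosen by their calls and their E2F words, so a word on either side of 0 follows from the choice. A part of E2F factors in the fold changes was not tested. The first E2F word began at position −8 in Dtl, −138 in Pola1, 22 in Clspn and 20 in Mcm3, counted from the start site as position 1 with no position 0. A match of letters is a description of the window and not a binding site.

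Among the 24 origin licensing genes, 0 passed the threshold with edgeR, although 5 were lower (background 7.00%) and 1 was higher (background 6.50%) at an unadjusted p under 0.05. DESeq2 called Dtl lower (background 2.93%) and Mcm3 higher (background 2.40%). There were 16 below 0 and 8 above and a median log2 fold change of −0.06. The 6 ORC subunits, which mark origins, were close to Control, with a median of −0.03. Orc2 (chr1:58462771-58505109, minus strand, with all gene coordinates from GENCODE on GRCm38) had the smallest p of the complex. It was measured at 2793, 2642 and 2442 normalized counts in the Control mice and 2224, 2250 and 2375 in the Prmt1-null mice. The groups did not overlap, and the mean was 87.0% of Control, which did not pass the threshold (log2 fold change −0.20, SE 0.075, adjusted p = 0.239, edgeR). Orc2 shares 29.8% of its exon bases with Nif3l1 on the opposite strand. Orc1, the subunit whose amount cycles in mammalian cells, was the lowest of all 49 members per length, at 97.5 normalized counts per kb of exon in Control, and stood at 107% of Control in Prmt1-null iGBs (log2 fold change 0.09, SE 0.15).

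The factors that load the helicase and their inhibitors lay on both sides of 0. Dtl (chr1:191537356-191575544, minus strand), which targets Cdt1 for destruction in S phase, had 4630, 4556 and 4328 normalized counts in the Control mice and 3359, 3800 and 4014 in the Prmt1-null mice. Every Prmt1-null library lay below every Control library, and the mean was 82.7% of Control (log2 fold change −0.27, SE 0.071, adjusted p = 0.0849, edgeR). Dtl did not pass the threshold in this fit, and it did with DESeq2 (adjusted p = 0.0181) and in edgeR without the low-count filter (adjusted p = 0.00968). Cdt1, its target, had 1847, 2013 and 1901 normalized counts in the Control mice and 2042, 2329 and 2026 in the Prmt1-null mice. These groups did not overlap either, in the opposite direction (log2 fold change 0.15, SE 0.084, adjusted p = 0.471, edgeR). Geminin (Gmnn), which binds and blocks Cdt1, stood at 103% of Control and Cdc6 at 94.4%, both with overlapping libraries. The ratio of Cdt1 to Gmnn within a library was 5.3, 4.7 and 4.79 in Control and 5.41, 5.93 and 4.57 in Prmt1-null iGBs. The means were 4.93 ± 0.321 and 5.3 ± 0.686 (SD, n = 3 each), a difference within the spread of the libraries (two-sided exact permutation test, p = 0.6, the smallest p this design allows being 0.1).

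Of the 6 MCM subunits, 4 lay above 0, and the median log2 fold change was 0.08. Mcm3 had the highest level of all 49 members per length, at 3080 normalized counts per kb of exon in Control, and Mcm4 and Mcm6 stood at 2890 and 2450 on the same scale. Mcm3 (chr1:20802968-20820312, minus strand) had 11225, 11786 and 11680 normalized counts in the Control mice and 12448, 13144 and 13729 in the Prmt1-null mice. The 3 Prmt1-null libraries were all above the Control libraries, at a mean of 113% of Control (log2 fold change 0.18, SE 0.06). This did not pass the threshold with edgeR (adjusted p = 0.181), and it did with DESeq2 (adjusted p = 0.0491). Mcm2, Mcm5 and Mcm6 stood at 106%, 109% and 106% of Control, and Mcm4 and Mcm7 at 95.0% and 95.3%, all with overlapping libraries. The median of the 6 subunits relative to the Control mean was −0.01, 0.06 and 0.02 on the log2 scale for Control replicates 1, 2 and 3 and 0.02, 0.09 and 0.13 for the Prmt1-null replicates, so the groups overlapped for the complex as a whole.

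All 8 genes that convert the loaded MCM ring into an active helicase had a fold change below 0, with a median of −0.12 on the log2 scale, and 0 passed the threshold with edgeR or DESeq2, with 3 at an unadjusted p under 0.05 in edgeR (background 7.00%). Cdc7 (chr5:106964322-106984432, plus strand), the kinase that phosphorylates MCM subunits to fire origins, had 1858, 1796 and 1666 normalized counts in the Control mice and 1401, 1497 and 1531 in the Prmt1-null mice. The groups did not overlap, at a mean of 83.3% of Control (log2 fold change −0.26, SE 0.087, adjusted p = 0.18, edgeR). Its activating subunit Dbf4 stood at 89.2% of Control with overlapping libraries. Cdc45 and Gins2, parts of the active helicase, stood at 88.1% and 90.4% without overlap, but 67.3% of the exon bases of Gins2 are shared with Gse1 on the opposite strand. Mcm10, Gins1, Gins3 and Gins4 lay between 92.9% and 98.5% of Control with overlapping libraries. Gins1, with the fewest counts of any member, spread widely in Control, with a mean of 295.1 ± 79.9 in the Control and 274.1 ± 21.0 in the Prmt1-null libraries (SD, n = 3 each).

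**Figure D2:**
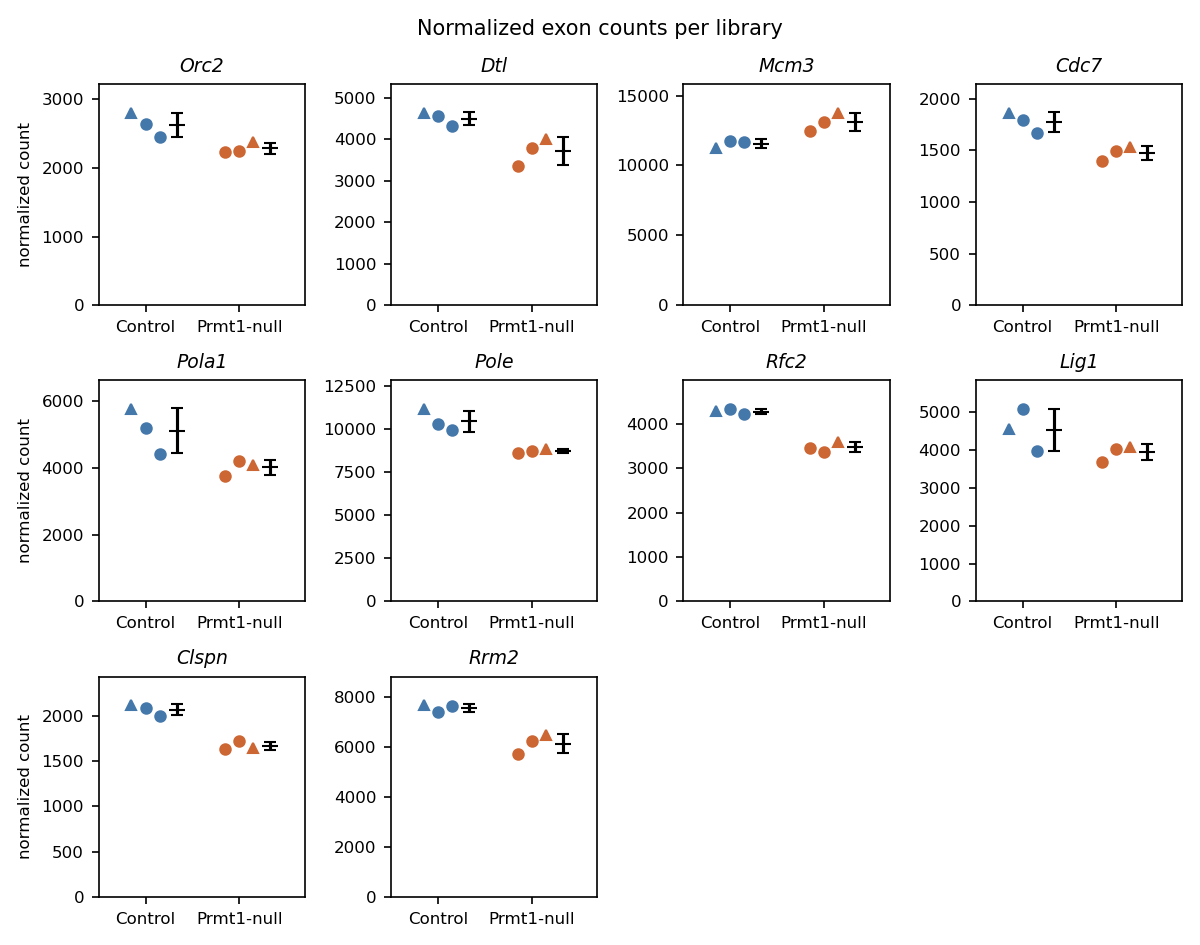
Normalized counts per library (y axis, from 0) of Rfc2 and Rrm2, which passed the threshold, and of the member with the smallest p in each other role, with Control in blue and Prmt1-null in orange (x axis). Triangles are males, circles are females, and the bar beside each group is the mean ± SD (n = 3). Only in the panels of Mcm3 are the Prmt1-null libraries the higher ones, and only in those of Lig1 do the groups overlap.

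In the polymerase and clamp group 19 of 21 genes had a fold change below 0 (all genes tested 50.1%), and the median was −0.15 on the log2 scale. The threshold was passed by 1 gene, Rfc2, with edgeR (background 0.602%) and by 4 genes, Clspn, Pola1, Pole and Rfc2, with DESeq2 (background 2.93%), all lower. Pola1 (chrX:93304767-93632155, minus strand), the catalytic subunit that extends RNA primers, had the lowest fold change of all 49 members. The normalized counts were 5764, 5195 and 4415 in the Control mice and 3772, 4205 and 4095 in the Prmt1-null mice. The groups did not overlap, although Control spread widely, and the mean was 78.5% of Control (log2 fold change −0.35, SE 0.085, adjusted p = 0.0694, edgeR). It passed the threshold with DESeq2 (adjusted p = 0.0063) and in edgeR without the low-count filter (adjusted p = 0.000199) or without Control replicate 3 (adjusted p = 0.00547). Pola2, the accessory subunit, stood at 86.5% without overlap, and the primase subunits Prim1 and Prim2 at 88.5% and 99.9% with overlap.

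Pole (chr5:110286306-110337474, plus strand), the catalytic subunit of the leading strand polymerase, had 11135, 10260 and 9912 normalized counts in the Control mice and 8592, 8691 and 8835 in the Prmt1-null mice. All 3 Prmt1-null libraries were below the lowest Control library, and the mean was 83.4% of Control (log2 fold change −0.26, SE 0.061). The adjusted p was 0.0569 in the reported edgeR fit, 0.00972 in edgeR without the low-count filter and 0.00219 with DESeq2. Its partner subunit Pole2 stood at 94.7% of Control with overlapping libraries and a mean of 4242 ± 801 (SD, n = 3) in Prmt1-null iGBs. The polymerase delta genes Pold1, Pold2 and Pold3 stood at 90.3%, 104% and 103% of Control, with overlapping libraries.

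The clamp and its loader held the member with the smallest p of all 49. Rfc2 (ENSMUSG00000023104, chr5:134581366-134601805, plus strand), a small subunit of the RFC complex that opens PCNA and closes it around DNA, fell. It was measured at 4282, 4324 and 4217 normalized counts in the Control mice and 3461, 3367 and 3585 in the Prmt1-null mice. The libraries were tightly grouped and did not overlap, with means of 4274 ± 54.1 and 3471 ± 110 (SD, n = 3 each), or 81.2% of Control (log2 fold change −0.30, SE 0.059, adjusted p = 0.0282, edgeR). Rfc2 shares 952 exon bases (15.1%) with Lat2 on the opposite strand, and the strand setting of the counting is not given in the sources used here. The call was lost without Control replicate 1 or 2, or without any one of the 3 Prmt1-null libraries, where each fit had fewer samples, and the adjusted p over the 6 fits that left out 1 library ran from 0.0248 to 0.186 while the log2 fold change stayed between −0.33 and −0.27. The other 4 subunits were also below 0. Rfc1, the large subunit, stood at 83.5% with overlapping libraries and Rfc3 at 88.1% without overlap, and Rfc4 and Rfc5 stood at 94.4% and 96.0% with overlap. Pcna, the clamp, had 4499, 4730 and 4714 normalized counts in the Control mice and 4131, 3971 and 4498 in the Prmt1-null mice. These values just missed each other (log2 fold change −0.15, SE 0.064, adjusted p = 0.324, edgeR), and they are uncertain because reads may be shared with Pcna-ps2, an intronless copy on chromosome 19 that was looked up after the values were seen. That copy had between 3801 and 4519 normalized counts in Control and between 3582 and 3826 in Prmt1-null libraries.

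On the lagging strand, Lig1 (chr7:13277283-13311433, plus strand), the ligase that seals Okazaki fragments, had 4555, 5081 and 3980 normalized counts in the Control mice and 3697, 4043 and 4089 in the Prmt1-null mice. The groups overlapped, at a mean of 86.9% of Control (log2 fold change −0.20, SE 0.082, adjusted p = 0.283, edgeR). The flap endonuclease Fen1 stood at 96.8% of Control, and 78.8% of its exon bases lie opposite the annotated antisense gene Gm10143. Clspn (chr4:126556935-126593903, plus strand), which encodes claspin, the mediator between a stalled fork and the checkpoint kinase Chk1, was lower by a wider margin. It had 2112, 2085 and 1995 normalized counts in the Control mice and 1630, 1716 and 1645 in the Prmt1-null mice. No library of one group reached the other, and the mean was 80.6% of Control (log2 fold change −0.31, SE 0.079). The adjusted p was 0.0784 in the reported edgeR fit, 0.0457 in edgeR without the low-count filter and 0.00831 with DESeq2. The RPA subunits, which coat single-stranded DNA, differed less, with Rpa1 at 95.9% and Rpa3 at 91.5% of Control without overlap and Rpa2 at 94.9% with overlap.

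**Figure D3:**
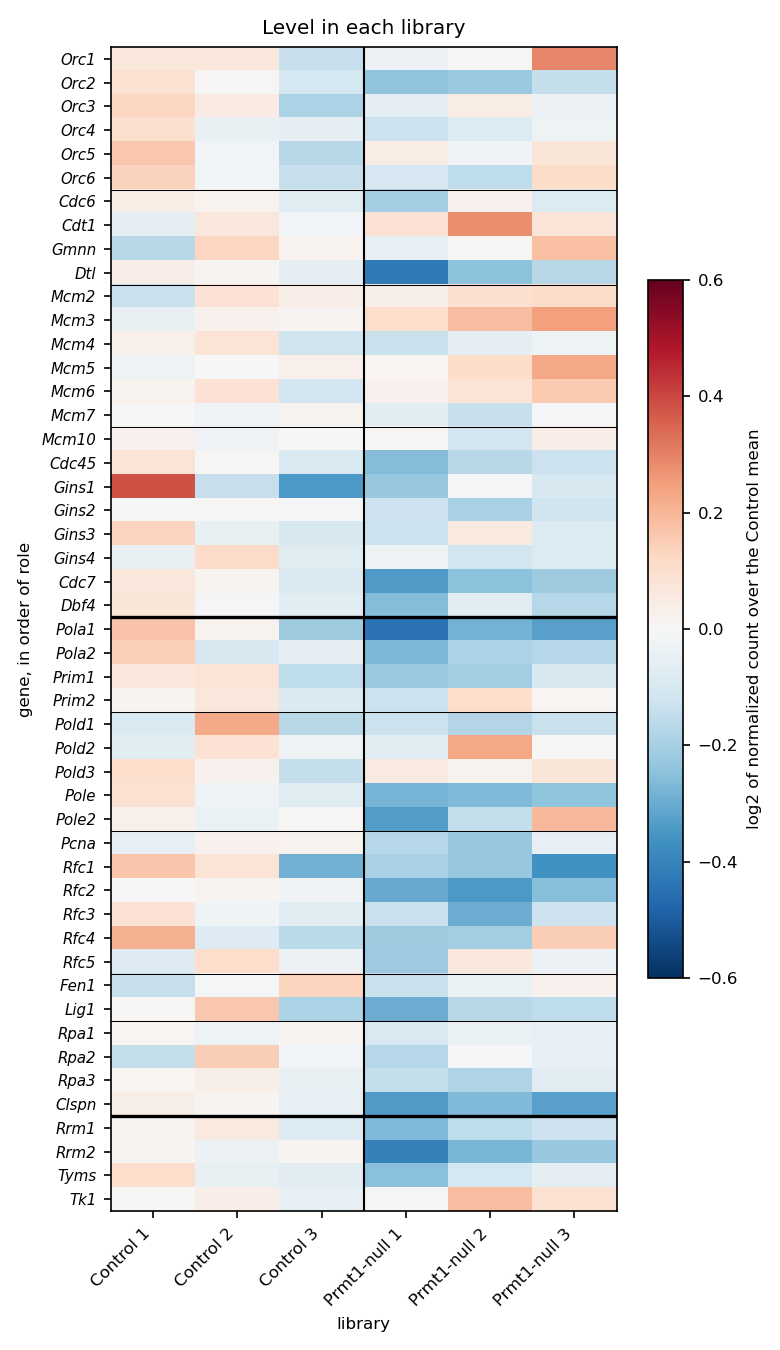
Log2 of each library's normalized count over the Control mean (color scale from −0.6 to 0.6, blue lower and red higher) for the 49 genes in order of role (y axis) in the 6 libraries (x axis). Thick lines separate origin licensing, polymerase and clamp, and dNTP supply. The blue blocks in the Prmt1-null columns lie mainly in the helicase activation, polymerase, clamp and nucleotide rows, whereas the Mcm2, Mcm3, Mcm5 and Mcm6 rows are pale or red there.

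Of the 4 genes of dNTP supply, 3 had a fold change below 0. Rrm2 (ENSMUSG00000020649, chr12:24708241-24714146, plus strand), the small subunit of ribonucleotide reductase whose amount limits the enzyme in cycling cells, fell. The normalized counts were 7687, 7411 and 7673 in the Control mice and 5723, 6267 and 6486 in the Prmt1-null mice. All Prmt1-null libraries were below all Control libraries, with means of 7590 ± 156 and 6159 ± 393 (SD, n = 3 each), or 81.1% of Control (log2 fold change −0.30, SE 0.061, adjusted p = 0.033, edgeR). The exons of Rrm2 overlap no other annotated gene. As for Rfc2, the call was lost without Control replicate 1 or 2 or without any one Prmt1-null library, with adjusted p between 0.0401 and 0.184 over the 6 fits and log2 fold changes between −0.34 and −0.25. The large subunit Rrm1 had 14721, 15139 and 13756 normalized counts in the Control mice and 12083, 13092 and 13356 in the Prmt1-null mice. The groups did not overlap, and the difference did not pass the threshold (log2 fold change −0.18, SE 0.064, adjusted p = 0.218, edgeR). The ratio of Rrm2 to Rrm1 was 0.522, 0.49 and 0.558 in Control and 0.474, 0.479 and 0.486 in Prmt1-null iGBs. Its means were 0.523 ± 0.0341 and 0.479 ± 0.00606 (SD, n = 3 each), and the two-sided exact permutation test gave p = 0.1, the smallest p that 3 against 3 libraries can give. Tyms, which makes dTMP, stood at 91.0% of Control, and Tk1, which salvages thymidine, at 106%, both with overlapping libraries.

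The libraries contributed unevenly to these differences. Over the 49 genes the median level relative to the Control mean was 0.03, 0.02 and −0.07 on the log2 scale in Control replicates 1, 2 and 3, and −0.13, −0.11 and −0.05 in Prmt1-null replicates 1, 2 and 3. For the polymerase and clamp genes the medians were 0.01, 0.02 and −0.06 in Control and −0.19, −0.18 and −0.06 in Prmt1-null libraries. Prmt1-null replicate 3, the male, was thus the Prmt1-null library closest to Control, and it was the highest of its group for 32 of 49 genes. Control replicate 1, also a male, was the highest of its group for 25. Without Control replicate 1 or 3 the median log2 fold change of the origin licensing genes went from −0.058 to −0.015 or −0.102. Without Prmt1-null replicate 3 the median log2 fold change of the polymerase and clamp genes went from −0.15 to −0.21.

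The comparison was also made within each sex, with 2 females of each genotype and 1 male of each, so that no test within males was possible. Over all members the median log2 difference was −0.11 in females and −0.07 in males, beside 0.002 and 0.005 for all genes tested. Both sexes were lower for 30 members and both were higher for 8, and 11 members differed in direction or had no difference. The shares were 61.2% lower and 16.3% higher in both sexes, against 29.1% and 30.3% of all genes tested. In the polymerase and clamp group 19 of 21 genes were lower in females and 16 in males. Rfc2 was lower by 0.32 and 0.26 on the log2 scale in females and males, and Rrm2 by 0.33 and 0.24. Mcm3 was higher by 0.12 in females and 0.29 in males, and the MCM genes had medians of 0.02 and 0.19. With sex as a covariate Pole also passed the threshold (adjusted p = 0.0394, edgeR), beside Rfc2 and Rrm2.

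**Figure D4:**
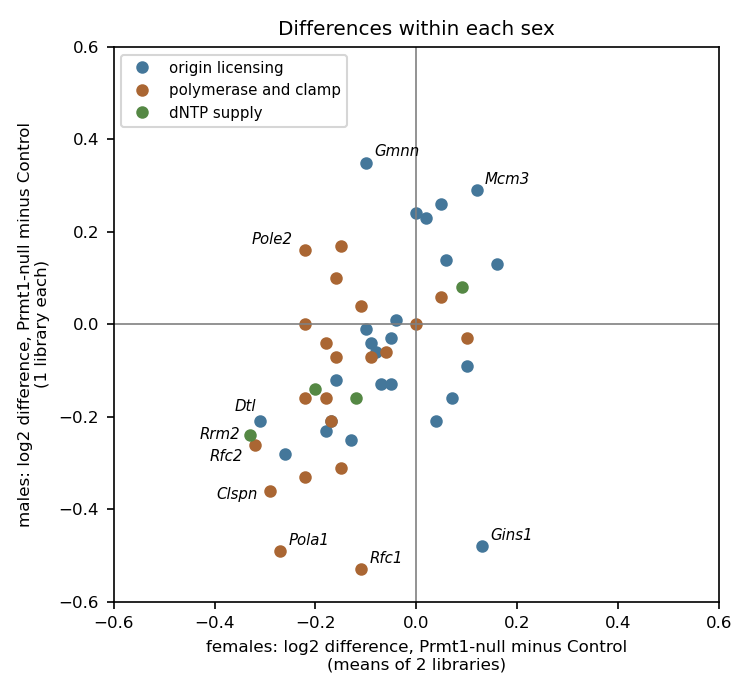
Log2 difference between Prmt1-null and Control normalized counts of the 49 genes in females (x axis, means of 2 libraries) and in males (y axis, 1 library each), colored by group. Points in the lower left part are genes lower in both sexes, 30 in number, with Rrm2 and Rfc2 at −0.33 and −0.32 in females. Pole2 and Gmnn were lower in females and higher in males, and Gins1 the reverse.

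Other genes of the pathway were read from the same fit. Of 58 other genes of replication initiation, fork protection, chromatin assembly and nucleotide metabolism, 39 had a fold change below 0 and 19 above, with a median of −0.09 on the log2 scale. Below 0 lay 50.1% of all genes tested. The threshold was passed by 2 of the 58, both lower (background 0.602%). Ticrr, which encodes Treslin and helps recruit Cdc45 to origins, had 3505, 3211 and 3524 normalized counts in the Control mice and 2542, 2668 and 2928 in the Prmt1-null mice. The groups did not overlap (log2 fold change −0.33, SE 0.073, adjusted p = 0.0456, edgeR). Dck, the deoxycytidine kinase of nucleotide salvage, had 8632, 7736 and 7662 normalized counts in the Control mice and 6015, 6460 and 6717 in the Prmt1-null mice, again without overlap (log2 fold change −0.32, SE 0.066, adjusted p = 0.033, edgeR). With 1 library left out Ticrr was called in 0 of 6 fits (adjusted p between 0.0677 and 0.231, edgeR) and Dck in 1 of 6, that without Control replicate 3 (adjusted p between 0.0196 and 0.187, edgeR), each fit having fewer samples. The log2 fold changes stayed between −0.39 and −0.28 for Ticrr and between −0.36 and −0.26 for Dck. Without overlap 15 of the 58 were lower (background 9.92%) and 3 higher (background 9.95%).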

How the data were processed

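RNA had been extracted from iGBs of 3 Control and 3 Prmt1-null mice and sequenced as rRNA-depleted stranded libraries. Per the labels and the methods of the study, the authors used Trimmomatic 0.32 for trimming, STAR 2.3.0e for alignment to mm10 and featureCounts 1.4.4 for counting on exons, which took primary alignments of reads with no more than 2 locations. The strand setting of the counting is not given in the sources used here. The deposited file holds raw counts, 1 value per gene and library. Of 39017 genes, 37693 were matched to GENCODE M21 by ID and 803 by symbol, which gave coordinates, exon lengths and overlaps.

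Counts were normalized by TMM and tested in R 4.3.3 with edgeR 4.0.16 (glmQLFit and glmQLFTest, two-sided) after removal of 398 chromosome Y genes and filterByExpr with a minimum count of 10. This left 18268 genes, over which p was adjusted by Benjamini-Hochberg. A normalized count is a count divided by the effective library size and multiplied by the mean of that size, so all libraries share a scale. A gene with 3 counts, taken as the limit of detection, had 0.0478 to 0.0662 CPM, which covers counting error only, as the reads carry no molecular identifiers. Differences within a sex used log2 of the normalized count plus 0.5. Alternatives were DESeq2 1.42.0 (without filterByExpr, on 25707 genes), limma-voom (limma 3.58.1), DESeq2 size factors in edgeR, no low-count filter, the replicate number as a block, sex as a covariate, each library left out, no minimum mean count, and the genes of chromosome Y kept. Removal of GC content and length trends was added after the data were seen. The group comparisons without covariates by edgeR, DESeq2 and limma-voom were first tried on simulated data, with changes larger than that of any member. The permutation tests and the other settings were not tried in this way. Promoters were read from RefSeq.

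The genes, their groups and all lists were chosen with earlier results of these data known. Values are given in full for each called member and for the member with the smallest p in each role, and for called genes among the other replication genes.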

Additional observations from a re-analysis of the deposited data

How the results depend on the processing

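Rfc2 and Rrm2 kept their direction in every alternative run. The members called lower numbered 2 in the reported fit, 6 with DESeq2, 6 with no filter on low counts, 5 with GC content and length trends removed (added after the data were seen), and between 0 and 5 when 1 library was left out, the cause of which was not tested beyond the smaller number of samples. Members called higher numbered 1 with DESeq2. All genes called numbered 216 in the reported fit, 706 with DESeq2, 675 with no filter, 362 with GC content and length trends removed, and between 31 and 340 with 1 library left out. The median log2 fold change of the polymerase and clamp genes ran from −0.212 without Prmt1-null replicate 3 to −0.114 without Control replicate 2. That of the origin licensing genes, −0.058 in the reported fit, ran from −0.102 without Control replicate 3 to −0.015 without Control replicate 1. That of all members, −0.08 in the reported fit, ran from −0.114 without Control replicate 3 to −0.043 without Prmt1-null replicate 1, and that of dNTP supply from −0.192 to −0.106.

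Libraries of both groups carry the numbers 1, 2 and 3 but come from different mice. Correlations of same-numbered libraries were −0.262, 0.184 and −0.295, so the numbers do not pair them, and 1 member, Rrm2, was called lower with the replicate number as a block, where Rfc2 (log2 fold change −0.30, adjusted p = 0.0547), Ticrr (−0.33, adjusted p = 0.0604) and Dck (−0.32, adjusted p = 0.0598) did not pass in edgeR.

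With 3 mice per group, of which 1 was male, the calls of Clspn, Dtl, Mcm3, Pola1 and Pole depended on the settings. Each passed the threshold with DESeq2, which was fitted without the low-count filter on 25707 genes, and all of these but Mcm3 also passed in edgeR when that filter alone was dropped. Pole passed with limma-voom too, with the filter kept (adjusted p = 0.0463). The genes without overlap are described by counts only, since 3 against 3 libraries cannot give a permutation p under 0.1.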
